A study of Mus musculus with 4 samples.

Results

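The genes of 10 subunits of the vacuolar proton pump were examined in chromatin immunoprecipitation sequencing data of H3K27ac, a histone mark that lies at promoters and enhancers in use. The genes were a list given by name, Atp6v0c, Atp6v0b, Atp6v0a1, Atp6v0d1 and Atp6v0e2 of the membrane sector and Atp6v1a, Atp6v1b2, Atp6v1g1, Atp6v1g2 and Atp6v1h of the cytosolic sector, and all 10 were found among the 21755 protein-coding genes of the annotation. The tissue, left cerebral cortex, came from B6CASTF1/J females aged 2 months, hybrids of the strains C57BL/6J and CAST/EiJ. The 4 samples form 1 group of 2 pools, I and J, each of 4 biosamples and each sequenced as 2 technical libraries, with no treatment and no second tissue. No contrast between conditions could therefore be made, and no test was run. The genes were chosen by name with measured values in view, namely the signal rank and width of their promoter peaks and the presence of these peaks in both pools, so those values describe the genes and support nothing further.

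The vacuolar proton pump (V-ATPase) is a rotary enzyme that spends ATP to move protons into the lumen of lysosomes, endosomes, the Golgi and secretory vesicles. Its cytosolic V1 sector burns ATP and turns a central stalk, and its membrane V0 sector carries the protons on a rotating ring. In neurons the proton gradient it makes drives the loading of transmitter into synaptic vesicles, and several subunits have isoforms that are enriched in brain.

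The replicated list made from both pools held 72027 peaks, whose median width was 597 bp. Their median signal, the value that the authors' peak caller wrote for each peak, was 3.67. The lists of pool I and pool J held 69834 and 49839 peaks. The depth of the libraries is unknown, because the lists hold no read counts. The lists differ in length and in signal scale, so a rank is read only within its own list. The neuronal marker genes Slc17a7, Neurod2, Snap25 and Gad1 each had a peak at a transcription start site (TSS), and none of 6 marker genes of other tissues did. In bulk cortex, more cells with the mark and more of the mark per cell cannot be told apart.

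Each of the 10 subunit genes had a promoter peak, that is, a peak overlapping the 1000 bp on either side of an annotated TSS, in the replicated list and in both pool lists. Over all coding genes 58.5% had one in the replicated list, 58.2% in that of pool I and 55.2% in that of pool J. The strongest promoter peak of each of the 10 genes overlapped peaks of both pool lists, against 92.9% of the 12719 coding genes with a promoter peak. All 10 lay in the top 10% of the replicated list by signal, where the same holds for 48.2% of the coding genes with a promoter peak. Within the shorter lists of the pools, 8 of 10 reached the top 10% in pool I, where 46.3% of the coding genes with a promoter peak did. In pool J 5 of 10 reached it, and 38.0% of the coding genes. The median signal over the 10 genes was 12.1 against 8.86 over the coding genes with a promoter peak, and the median width was 1708 bp against 1138 bp. These shares and medians describe a chosen list, and the rule used the values they rest on.

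The sequences below show the promoters that the following paragraphs turn on, from the RefSeq promoter table of GRCm38.p6, 5′ to 3′ on the strand of the gene. Capitals mark the E-box CACGTG with its extended forms GTCACGTG and TCACGTGA, and the GC box GGGCGG, which reads CCGCCC on the other strand. Atp6v0c is shown because it carried the highest peak of the list, at chr17:24169679-24169928, minus strand, 250 bases just upstream of its RefSeq start. Atp6v1a carried the second highest peak of the 10, and the 156 bases shown lie at chr16:44139306-44139461, minus strand. Atp6v0b is shown for its 2 E-boxes close to the start, in 250 bases at chr4:117887330-117887579, minus strand.
Atp6v0c: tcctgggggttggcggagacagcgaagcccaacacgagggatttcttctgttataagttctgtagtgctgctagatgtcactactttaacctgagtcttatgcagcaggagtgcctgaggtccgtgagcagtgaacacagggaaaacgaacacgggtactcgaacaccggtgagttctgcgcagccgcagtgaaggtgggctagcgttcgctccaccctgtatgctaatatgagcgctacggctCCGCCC
Atp6v1a: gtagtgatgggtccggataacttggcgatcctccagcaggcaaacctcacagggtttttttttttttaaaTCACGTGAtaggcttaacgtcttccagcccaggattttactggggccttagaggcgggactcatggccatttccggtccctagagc
Atp6v0b: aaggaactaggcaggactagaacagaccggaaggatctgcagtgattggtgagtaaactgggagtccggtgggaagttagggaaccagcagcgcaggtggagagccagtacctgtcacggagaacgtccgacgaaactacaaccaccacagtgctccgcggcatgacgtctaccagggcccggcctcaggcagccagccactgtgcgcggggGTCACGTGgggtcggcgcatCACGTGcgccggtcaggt

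Atp6v0c encodes the proteolipid that makes up most of the rotating ring of V0. Its promoter peak at chr17:24168266-24170801 had a signal of 41.8 and a −log10 q of 303, and ranked 1 of 72027. Pool I gave a signal of 45.4 and pool J one of 36.6, and the peak ranked 1 in each of the 4 deposited lists. The next peak of the replicated list, at Efcab2, had a signal of 36.2, and the second values of the pool lists were 42.4 in pool I and 30.1 in pool J. In all 3 lists, then, the Atp6v0c peak stood alone at the top, with the smallest distance to the next peak in pool I. Its width was less extreme: 2536 bp in the replicated list, rank 3128, with 2810 bp in pool I and 2529 bp in pool J. The peak contained both annotated TSSs of the gene, its summit lay 102 bp downstream of the upstream one, and no other annotated gene had a TSS at it. The genome holds 2 near copies of a stretch of this peak, where a copy is an alignment of at least 100 bp at 90% identity or more. They cover 192 of 2536 bp and not the summit.

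The coding genes whose strongest promoter peaks were most like that of Atp6v0c in percentile of signal and of width over the replicated, pool I and pool J lists were Psip1, Herpud1 and Zfp335. The likeness is the distance over 6 percentiles, taken over 11902 genes with a promoter peak in every list, and it was 1.10 for Psip1, 1.67 for Herpud1 and 2.16 for Zfp335. Their replicated signals were 27.1, 27.3 and 30.5, at ranks 49, 43 and 21, and their widths were 2593, 2628 and 2624 bp. The nearest genes were thus close to Atp6v0c in width and in percentile of signal and well below it in signal.

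Atp6v0b encodes a second proteolipid of the same ring. Its peak at chr4:117886449-117887935 had a signal of 13.2 (rank 2601) and a width of 1487 bp. The pool values were close, 13.3 in pool I and 12.6 in pool J, with widths of 1398 and 1472 bp. Atp6v0b was 1 of 2 genes among the 10, with Atp6v0c, that had a single promoter peak, no further peak in the gene body, and no other gene's TSS at the peak.

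Atp6v0a1 encodes the large membrane subunit beside the ring that holds the path of the protons, in the isoform typical of neurons. It had 2 promoter peaks, chr11:101008649-101009368 upstream and chr11:101009463-101011361 downstream of a TSS, with signals of 8.84 and 9.35. The downstream peak ranked 6771 and measured 1899 bp. In the pool J list the pair stood at 7.36 and 7.50, and in the pool I list a single peak of 3116 bp with a signal of 11.4 covered both.

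Atp6v0d1 encodes the subunit that links the ring to the central stalk. Its stronger peak at chr8:105565369-105566045 was the narrowest of the 10, with 677 bp in the replicated list, 772 bp in pool I and 628 bp in pool J. Its signal was 9.37 (rank 6694), with 14.0 in pool I and 6.82 in pool J, and the gene Gm38250 has a TSS at the same peak. Among the 10 genes it took place 5 by signal in pool I and place 10 in pool J, the largest change of place between the pools. Its upstream peak (signal 4.93, 377 bp) overlapped a peak of pool I and none of pool J, the only one of the 15 promoter peaks of the 10 genes not found in both.

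Atp6v0e2 encodes a small hydrophobic subunit of V0, in the isoform enriched in brain. Its stronger peak at chr6:48537638-48539425 had a signal of 13.6 (rank 2348) and a width of 1788 bp, with 16.4 and 2712 bp in pool I and 10.8 and 1761 bp in pool J. The non-coding gene 1700026J14Rik has a TSS at the same peak. Of the 5 genes of the membrane sector, then, Atp6v0c stood far above the rest, Atp6v0b and Atp6v0e2 followed within 0.40 of each other, and Atp6v0a1 and Atp6v0d1 were level.

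Atp6v1a encodes the catalytic A subunit of V1, where ATP is split. Its peak at chr16:44137916-44140623 had a signal of 23.4, rank 155 of 72027, and a width of 2708 bp. Signals were 29.1 in pool I (rank 107, 2774 bp) and 17.3 in pool J (rank 342, 2688 bp), so the gene was second of the 10 in all 3 lists. Naa50, which encodes an N-terminal acetyltransferase, has a TSS at the same peak, and a peak cannot be divided between the genes that share it. The summit lay 249 bp upstream of the nearest TSS of the basic annotation, the only upstream summit of the 10. The full annotation holds a further start of Atp6v1a 325 bp upstream, from which the summit is 76 bp downstream.

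Atp6v1b2 encodes the non-catalytic B subunit of V1 in the isoform found in brain. Its stronger peak at chr8:69088722-69090349 had a signal of 11.8 (rank 3839) and a width of 1628 bp. The pool signals were 12.9 in pool I and 10.8 in pool J, and the widths 1609 and 1215 bp. A TSS of Slc18a1, a vesicular amine transporter gene, lies at the same peak.

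Atp6v1g1 and Atp6v1g2 encode isoforms of the G subunit of the peripheral stalk, the first broadly expressed and the second typical of neurons. Atp6v1g2 had the widest promoter peak of the 10, chr17:35234658-35237699, with 3042 bp in the replicated list, 3070 bp in pool I and 2852 bp in pool J. Its signal was 12.3 (rank 3311), with 15.9 in pool I and 9.07 in pool J. All 3 of its TSSs lay inside, as does a TSS of Nfkbil1, so Nfkbil1 was at a distance of 0 from it in the comparison by percentiles, followed by Cdk2ap1 at 3.70 and Dst at 3.94. Atp6v1g1 had the lowest signal of the 10 in the replicated list, 9.32 (rank 6802), at chr4:63544839-63545652. That peak measured 814 bp, and the pool values were 11.0 and 837 bp in pool I and 8.09 and 755 bp in pool J. Near copies elsewhere in the genome cover 161 of its 814 bp and not its summit. Atp6v1g1 also had a promoter peak of 508 bp with a signal of 6.36 upstream of its TSS. The strongest peak thus measured 3042 bp at Atp6v1g2, over its 3 TSSs and that of Nfkbil1, and 814 bp at Atp6v1g1, where the mark was called as 2 peaks. The signals of these strongest peaks differed by less than those of pool I and pool J for Atp6v1g2.

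Atp6v1h encodes the subunit that regulates the coupling of V1 and V0. The gene has 3 annotated TSSs, and the one at its 5′ end, at position 5070018 of chromosome 1, had no promoter peak in the replicated list. A small peak (signal 2.52, in neither pool list) had its summit 1153 bp downstream of that TSS, just beyond the promoter window. The promoter peak lay at the internal TSSs, chr1:5082583-5083629, with its summit 13248 bp into the gene. Its signal was 9.73 (rank 6203) and its width 1047 bp, with 10.1 and 1172 bp in pool I and 9.07 and 911 bp in pool J. With the 5′ end alone counted as the promoter, 9 of 10 genes had a promoter peak.

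**Figure D1:**
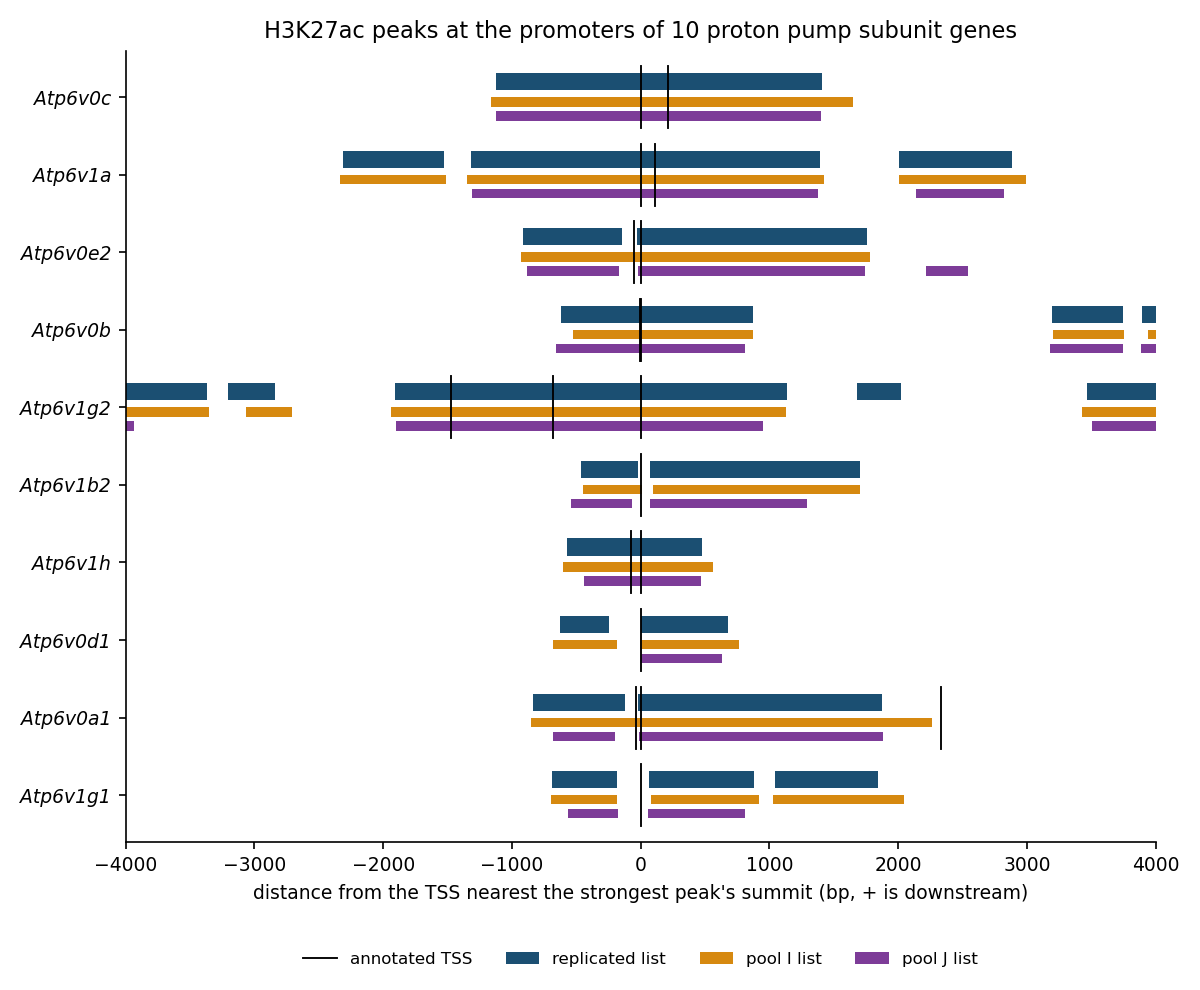
H3K27ac peaks within 4000 bp of the promoters of the 10 subunit genes, ordered by signal of the strongest promoter peak, with the distance in bp from the TSS nearest that peak's summit on the horizontal axis and downstream to the right. Bars are peaks of the replicated, pool I and pool J lists, and black lines are annotated TSSs. The peak of Atp6v1g2 is the widest with 3042 bp, and 5 genes have a TSS in a gap between peaks of the replicated list.

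The order of the 10 genes by replicated signal was Atp6v0c (41.8), Atp6v1a (23.4), Atp6v0e2 (13.6), Atp6v0b (13.2), Atp6v1g2 (12.3), Atp6v1b2 (11.8), Atp6v1h (9.73), Atp6v0d1 (9.37), Atp6v0a1 (9.35) and Atp6v1g1 (9.32). The first and second places were the same in pool I and pool J. Below them the order moved between pools: Atp6v0b took place 6 in pool I and place 3 in pool J, and Atp6v1h place 10 in pool I and place 6, level with Atp6v1g2, in pool J. The distance between the 2 pool signals of a gene ran from 0.69 in Atp6v0b to 11.8 in Atp6v1a and includes a difference of scale, since the lists had median signals of 4.52 (pool I) and 4.08 (pool J). The step of 18.3 from Atp6v0c to Atp6v1a and the step of 2.05 from Atp6v1b2 to Atp6v1h exceeded that distance in both genes concerned. For the step of 2.05 the margin was small, since the pools lay 2.01 apart in Atp6v1b2. In pool I, Atp6v0d1 from below that step took place 5, above Atp6v1b2 at place 7. Every other step in the order was under the distance between pools in at least 1 of its 2 genes, and the last 4 genes lay within 0.41 of each other.

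Widths fell into a different order. The widest, Atp6v1g2, took place 5 by signal, and the 3 genes with a peak of 2 kb or wider were Atp6v1g2, Atp6v1a and Atp6v0c. Over the coding genes with a promoter peak 18.3% reached that width. In pool I the count was 5 (22.9% of coding genes), with Atp6v0a1 (3116 bp) and Atp6v0e2 (2712 bp) added, each of which is there 1 peak where the replicated list has 2. In pool J it was 3 (12.1%).

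**Figure D2:**
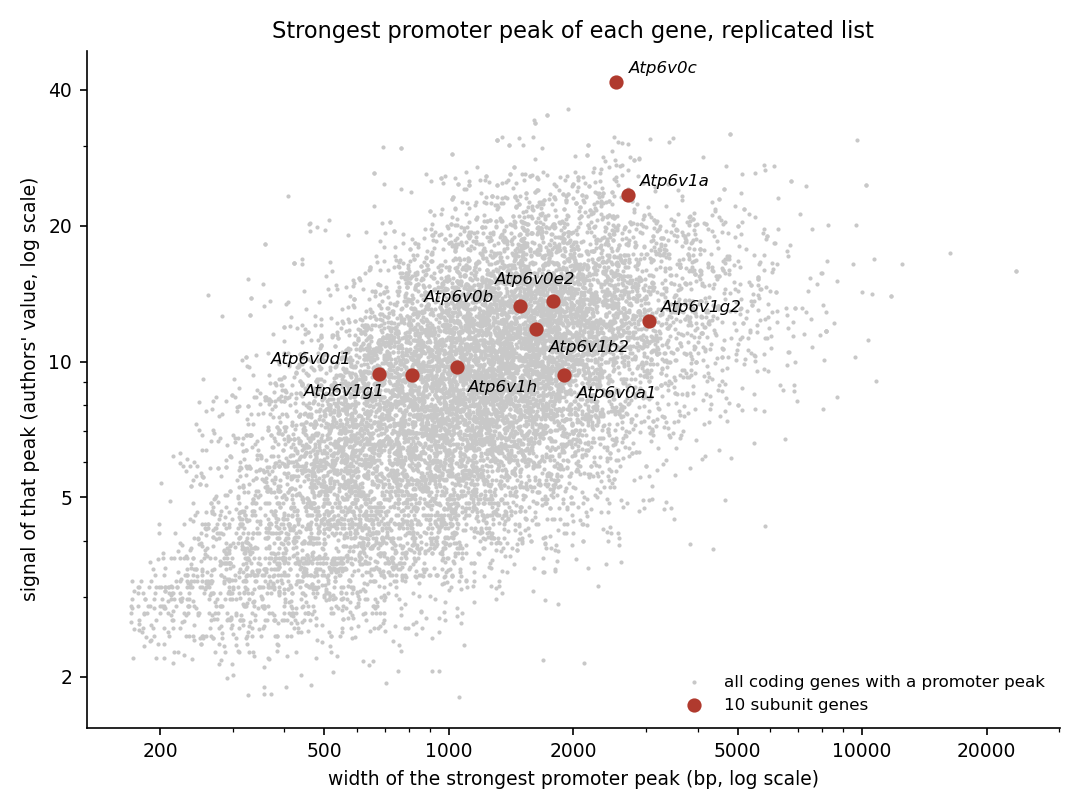
Signal against width, both on log scales, of the strongest promoter peak of each coding gene with one (grey) and of the 10 subunit genes (red) in the replicated list. Atp6v0c lies above all other genes at 41.8 with a width of 2536 bp, and the other 9 lie between 9.32 and 23.4.

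In 5 of the 10 genes a TSS lay in a gap between 2 promoter peaks of the replicated list, against 21.8% of the coding genes with a promoter peak. The gaps were 92 bp in Atp6v1b2, 94 bp in Atp6v0a1, 116 bp in Atp6v0e2, 248 bp in Atp6v1g1 and 249 bp in Atp6v0d1, where the median over the 2871 such gaps of coding genes was 200 bp (quartiles 142 and 323.5 bp). The downstream peak was the higher of the pair in all 5, and in 55.8% of all such gaps. The pairs, upstream first, were 8.0 and 11.8 in Atp6v1b2, 10.2 and 13.6 in Atp6v0e2, 6.36 and 9.32 in Atp6v1g1, and 4.93 and 9.37 in Atp6v0d1, beside 8.84 and 9.35 in Atp6v0a1. Such gaps were found in 4 of the 10 genes in pool J (21.6% of coding genes) and in 1, Atp6v1g1, in pool I (18.8%), where the gap of Atp6v1g1 was 268 bp, and 227 bp in pool J. Whether a TSS lay in a gap therefore differed between the lists for 4 of the 5 genes. In pool I, Atp6v1b2 and Atp6v0d1 also had 2 promoter peaks with a gap between them, but the TSS fell just inside 1 of the peaks.

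The bases of 3 of these gaps, from the upstream peak to the annotated TSS or to the RefSeq start, are printed to show what lies between the peaks. They come from the GRCm38.p6 genome of RefSeq, are read on the strand of the gene and carry the same capitals. They lie at chr11:101009369-101009451, plus strand (83 bases), chr8:105566048-105566294, minus strand (247 bases), and chr6:48537522-48537568, plus strand (47 bases).
Atp6v0a1: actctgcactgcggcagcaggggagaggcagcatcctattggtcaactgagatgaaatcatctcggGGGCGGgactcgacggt
Atp6v0d1: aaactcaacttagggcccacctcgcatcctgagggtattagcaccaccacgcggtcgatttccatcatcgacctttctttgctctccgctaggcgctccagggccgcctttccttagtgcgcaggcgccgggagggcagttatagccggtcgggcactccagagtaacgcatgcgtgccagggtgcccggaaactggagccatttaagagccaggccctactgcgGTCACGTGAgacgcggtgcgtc
Atp6v0e2: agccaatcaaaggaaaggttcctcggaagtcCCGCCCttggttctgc
The gaps of Atp6v0a1 and Atp6v0e2 hold a GC box. That of Atp6v0d1 holds an E-box in both extended forms at once, with its core 20 bp upstream of the annotated TSS.

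The strongest peaks had their summits downstream of the nearest TSS in 9 of 10 genes, at a median of 177 bp. Over all coding genes with a promoter peak 66.8% had a summit downstream, with a median of 128 bp and quartiles of −186 and 218 bp. The farthest were those of Atp6v1g2 at 340 bp, Atp6v1g1 at 318 bp, Atp6v1b2 at 315 bp and Atp6v0d1 at 301 bp. From the nearest start of the full annotation the summit of Atp6v1g2 lay at 246 bp and that of Atp6v1b2 at 172 bp, so that Atp6v1g1 and Atp6v0d1 became the farthest.

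The E-box with the core CACGTG is the letter pattern bound by basic helix-loop-helix factors of the TFEB and USF kinds, and TFEB is known to regulate lysosomal genes. RefSeq promoter windows of 300 bases (250 upstream and 50 downstream of a start) were given for 7 of the 10 genes, Atp6v1b2, Atp6v1g1 and Atp6v1h being the others. The window of Atp6v0a1 belongs to a start inside the gene. Patterns were searched on both strands, and the extended forms overlap the core. CACGTG was in 3 of the 7, Atp6v0b, Atp6v0d1 and Atp6v1a, against 9.22% of the 16433 coding genes in the table and 11.8% of those with a promoter peak. GTCACGTG was in 2, Atp6v0b and Atp6v0d1 (3.31% of genes), and TCACGTGA in 2, Atp6v0d1 and Atp6v1a (1.45%). Among coding genes with a promoter peak the shares were 4.77% for GTCACGTG and 2.21% for TCACGTGA. GGGCGG was in 5 of 7, with shares of 51.3% of genes and 70.3% of those with a promoter peak, and CCAAT in 2 (42.2% and 42.5%). The cyclic AMP element TGACGTCA and the NRF1 pattern GCGCATGCG were in none of the 7 windows (2.65% and 2.73% of genes).

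With the wider window of 500 bp on either side of every annotated TSS, which all 10 genes have, CACGTG was in 5 genes (20.6% of the 21755 coding genes), with Atp6v1g1 and Atp6v1h added. GTCACGTG was in 4 of the 10 (4.98%) and TCACGTGA in 2 (2.18%). GGGCGG was in all 10 (65.4%), CCAAT in 6 (76.4%), TGACGTCA in Atp6v0c (3.85%) and GCGCATGCG in Atp6v0e2 (3.38%). These shares include coding genes without a promoter peak. In the RefSeq windows every pattern had a higher share among the genes with a promoter peak. From the nearest annotated TSS the core lay at −18 and −36 bp in Atp6v0b, −20 bp in Atp6v0d1, −85 bp in Atp6v1a, −257 bp in Atp6v1g1 and 9 and 23 bp in Atp6v1h. All of these lay inside a promoter peak except that of Atp6v0d1, which lay in the gap. In Atp6v1h the 2 matches sit beside the internal TSS with the peak. Matches are letters in a window, and binding was not measured.

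Beyond the promoters, 24 peaks of the replicated list overlapped the bodies of 6 of the 10 genes, against 45.2% of the coding genes with a promoter peak that had at least 1. Of the 24, 13 overlapped peaks of both pools, 6 of pool I alone, 1 of pool J alone and 4 of neither. Their median signal was 3.37 and their median width 651.5 bp, beside 3.67 and 597 bp over the whole list. Over all 72027 replicated peaks 56.0% overlapped peaks of both pools.

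Atp6v0a1 held 13 of the 24. All peaks together, the part of its promoter peak beyond the promoter window included, covered 13517 of the 51231 bp of its body more than 1000 bp from a TSS. This share of 26.4% placed it at percentile 96.4 of the 9193 coding genes with at least 10 kb of such body, whose median was 1.00%. Of the 13, 10 had their summits 36268 bp or more from the 5′ end of a gene of 54268 bp. For all 10 the nearest coding TSS was that of Naglu, from 23958 to 5805 bp away, and not one of Atp6v0a1. The widest of them, 2560 bp with a signal of 6.0, overlapped the 3′ end and had its summit just past it. Peaks of both pools overlapped 7 of the 13. Peaks there were joined into long stretches in pool I and short and apart in pool J.

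Atp6v1a held 4 body peaks, and by the same measure, promoter peak edge included, peaks covered 9.53% of its body (percentile 85.0). The largest, chr16:44121670-44124794 in an intron, measured 3125 bp with a signal of 8.10, the highest of the 24, and its summit lay 16253 bp from the nearest TSS. It was found in both pools. Atp6v0d1 held 1 body peak of 1243 bp with a signal of 4.96, found in both pools, with its summit 20683 bp from the TSS. The 4 body peaks of Atp6v1h were no wider than 399 bp and no higher than 3.37, and 1 of them lay near a TSS of another gene, Rgs20. Atp6v1g1 and Atp6v1g2 held 1 each, with signals of 2.68 and 2.47 and neither in both pools. Atp6v0b, Atp6v0c, Atp6v0e2 and Atp6v1b2 held none.

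**Figure D3:**
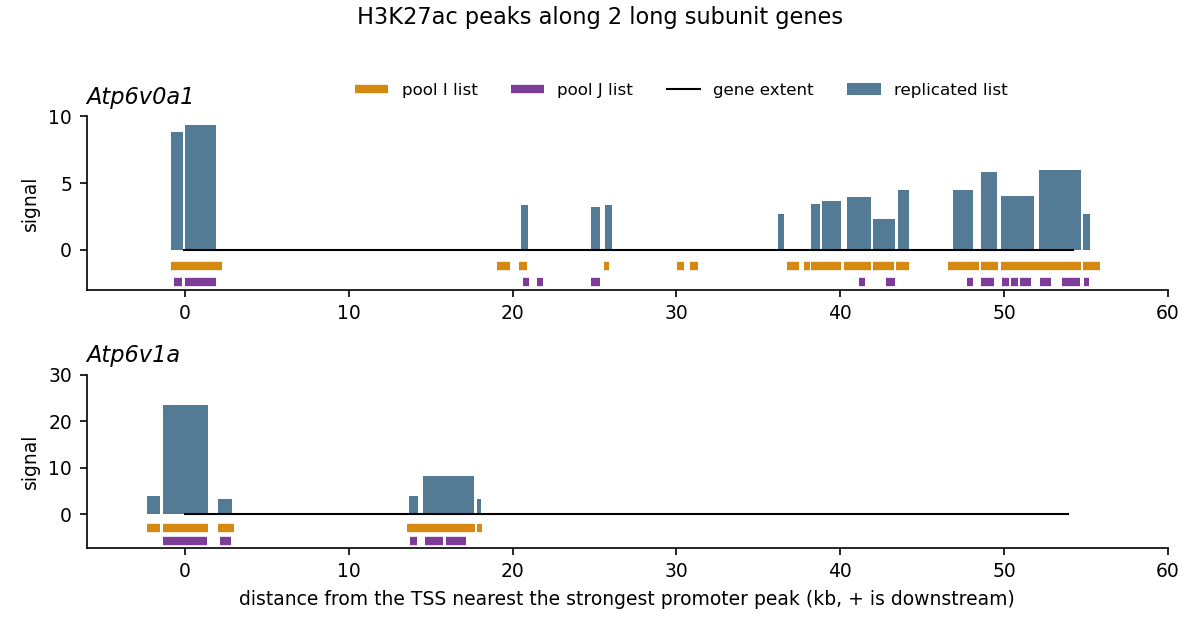
Peaks along Atp6v0a1 and Atp6v1a, with the distance in kb from the TSS nearest the strongest promoter peak on the horizontal axis and the signal of replicated peaks as bar height from 0. Coloured strips below are peaks of the pool I and pool J lists, and the black line is the gene. In Atp6v0a1 most body peaks, up to 6.0, lie toward the 3′ end, and in Atp6v1a 1 intronic peak of 3125 bp reaches 8.10.

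Within 100 kb of the TSSs but outside the genes lay 126 peaks, from 3 around Atp6v1h and 6 around Atp6v1g1 to 20 around Atp6v0d1, and 81 were in both pools. No such count over all coding genes is given here, so these numbers have no comparison. Most of the high peaks among the 126 were promoter peaks of other genes. The highest was that of Ipo13, a nuclear import receptor gene, at 25.6 (rank 83) with its summit 27823 bp upstream of Atp6v0b, above the 13.2 of Atp6v0b itself. Ddx39b, an RNA helicase gene, had 23.2 (rank 164) with its summit 5578 bp downstream of the nearest Atp6v1g2 TSS, above the 12.3 of Atp6v1g2. Lrrc61 had 20.9, 16891 bp from Atp6v0e2.

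Among outside peaks at no annotated TSS, the highest was chr17:24211423-24213326, with a signal of 18.9 (rank 570) and its summit 42478 bp upstream of Atp6v0c. It lay beside a peak of 5395 bp (signal 14.7) over the TSSs of Ntn3 and Tbc1d24. The widest was chr8:105620082-105627251, with 7170 bp and a signal of 8.58, 56824 bp upstream of Atp6v0d1 and nearer to Ctcf. A peak of 4343 bp with a signal of 6.56 lay 43330 bp from the Atp6v1b2 TSS, nearer to Lzts1. All 3 were in both pools. For most of the 126 another coding gene was nearer: the subunit gene had the nearest coding TSS for 2 peaks each at Atp6v1b2, Atp6v1g1 and Atp6v1g2, 1 each at Atp6v0e2 and Atp6v1h, and none at the other 5.

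The remaining 15 genes of the pump and its accessory proteins were searched in the same way. Of these, 9 had a promoter peak, where 58.5% of all coding genes did. Their median signal was 7.66 and their median width 788 bp. The highest were Atp6v1d, of the central stalk, at 15.7 (rank 1359), and Atp6v0e, the partner isoform of Atp6v0e2, at 14.9 (rank 1707). The Atp6v1d peak is shared with a TSS of Eif2s1 and its summit lay at −290 bp, while no other gene has a TSS at that of Atp6v0e. The Atp6v0e peak lay at an internal TSS, at position 26676412 of chromosome 17 in a gene that starts at 26663231. Both signals exceed those of every one of the 10 genes except Atp6v0c and Atp6v1a. Atp6v1c1 (10.8), Atp6v1f (8.68), the accessory genes Atp6ap1 and Atp6ap2 (7.66 each), Atp6v1e1 (6.04), Atp6v0a2 (4.5) and Tcirg1 (3.87) followed. Of the 9, 3 reached the top 10% of the list, against 48.2% of the coding genes with a promoter peak. None was 2 kb wide, against 18.3% of those coding genes. A TSS lay in a gap between 2 promoter peaks in 4 of the 9, Atp6v0a2, Atp6v1d, Atp6v1e1 and Atp6ap1, against 21.8% of those coding genes. The upstream peak was the higher in Atp6v1d (15.7 against 9.90), and the downstream peak in the others.

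Where the pump has isoforms, some had a promoter peak and some had none. Atp6v0a1 had 9.35, Atp6v0a2 4.5 and Tcirg1, the isoform of osteoclasts, 3.87. The Tcirg1 peak lay at an internal TSS and overlapped no peak of pool J, whose list held a different promoter peak of the gene at 2.73. Atp6v0a4 had no promoter peak in any list. The same absence held for Atp6v0d2 beside Atp6v0d1 (9.37), Atp6v1b1 beside Atp6v1b2 (11.8), Atp6v1c2 beside Atp6v1c1 (10.8), Atp6v1e2 beside Atp6v1e1 (6.04), and Atp6v1g3 beside Atp6v1g1 and Atp6v1g2. These are isoforms known from kidney, bone, testis and other tissues. Both isoforms of the small subunit e had a peak, Atp6v0e with 14.9 and Atp6v0e2 with 13.6, as did the G isoforms Atp6v1g1 (9.32) and Atp6v1g2 (12.3). A gene without a peak in these lists may still carry the mark below what the authors' caller kept.

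**Figure D4:**
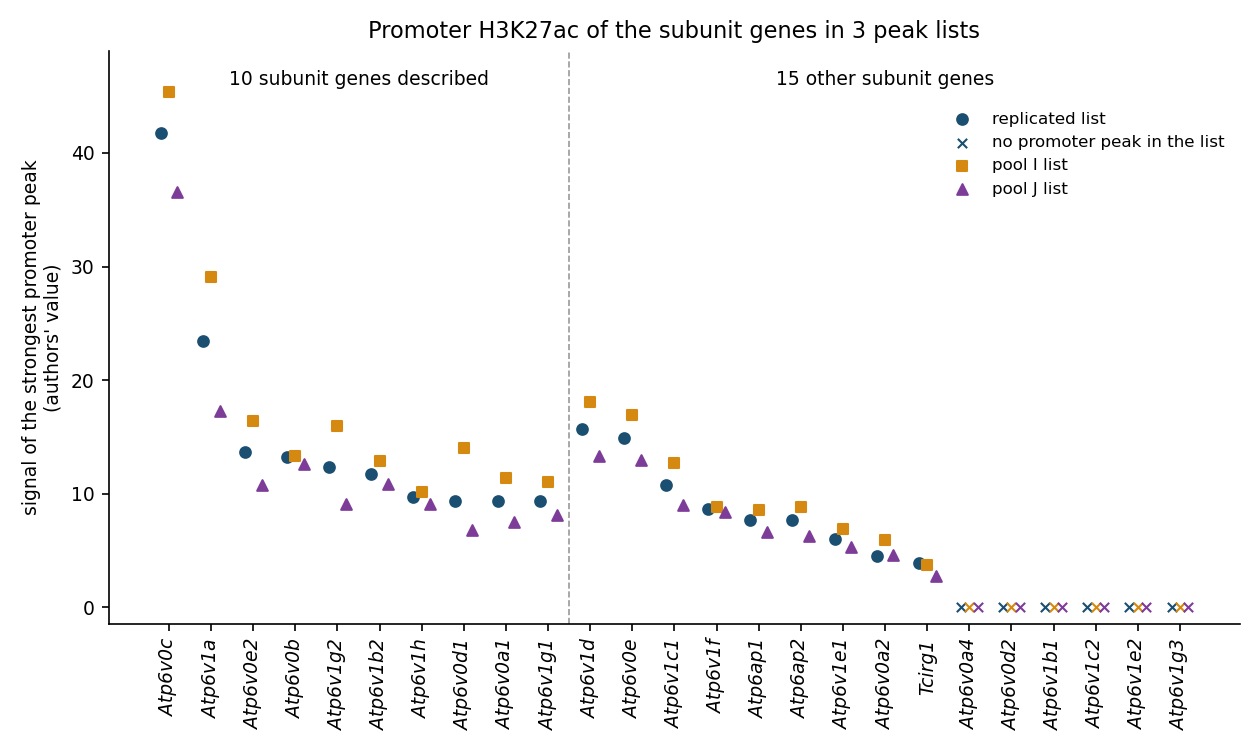
Signal of the strongest promoter peak in the replicated, pool I and pool J lists for the 10 subunit genes described and the 15 other subunit and accessory genes, with crosses at 0 where a list held no promoter peak. Atp6v0c and Atp6v1a are highest in every list, and 6 of the other subunit genes have no promoter peak in any of them.

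Genes that work with the pump had promoter peaks whose median signals lay between 9.01 and 10.7, beside 8.86 over the coding genes with a promoter peak. The counts that follow are those of the replicated list. They stand beside a share of 58.5% of all coding genes with a promoter peak, and that of the vesicular transporters is near it. Of 16 assembly and regulatory genes, 14 had a promoter peak with a median signal of 9.56, and the highest were Dmxl2 at 15.9, of the complex that assembles the pump, and Tbc1d24 at 14.7 and Ncoa7 at 13.3, of the TLDc family. The Tbc1d24 peak is shared with Ntn3 and BC028777, and its summit lay at −3497 bp from the nearest Tbc1d24 TSS. Tldc2 and Tfec had none. All 18 lysosomal genes had one (median 9.26), with the highest at Psap, the precursor of the saposins, at 23.8 and the hydrolase genes Gla at 14.8 and Gaa at 14.2, and the lowest at 6.19. All 10 genes of the complexes that hold mTORC1 at the lysosome had one (median 9.01), led by Lamtor1 at 19.8, Lamtor2 at 14.0 and Lamtor4 at 11.8. Of 9 vesicular transporters, which use the gradient, 5 had a promoter peak: Slc17a7 (13.0), Slc18a1 (11.8), Slc30a3 (10.7), Slc32a1 (3.07) and Slc17a6 (2.12). Slc17a8, Slc17a9, Slc18a2 and Slc18a3 had none, and the peak of Slc18a1 is that of Atp6v1b2. Beside these, the 10 subunit genes had a median of 12.1, a value that the choice of the list bears on.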

How the data were processed

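H3K27ac ChIP-seq of the left cerebral cortex came as 4 peak lists on mm10: a replicated and a pseudoreplicated list from both pools and 1 list per pool. The 2 libraries of a pool share 1 list, so values exist per pool. The signal of each peak, the −log10 q and the summit are the authors' deposited values, and not given in the sources used here are the normalization of the signal, the aligner, the peak caller and the treatment of CAST/EiJ variants. Ranks were read only within a list, and signals of different lists stand side by side on scales that differ. Depth is unknown, so no counting interval was made.

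Genes and TSSs came from GENCODE vM21 basic (19 autosomes and X). Promoter peaks are those within 1000 bp of a TSS on either side, and a gene took its peak of highest signal. Peaks of 2 lists matched where they shared at least 1 bp. Other peaks were placed in the gene body or outside it within 100 kb. All 10 RefSeq promoter windows of the genes were equal to the GRCm38.p6 genome. Near copies were sought with BLAST+ 2.17.0. Tables were made with Python 3.11.15, pandas 2.3.3 and numpy 2.4.6, and the peak assignment was checked on simulated peaks. Named beside the 10 are all other pump subunits, the 3 highest genes of each further list and those without a peak, genes sharing or nearest to a peak described, and the 3 most alike by percentiles. The other 2 genes of vesicle transport with a peak were named after their values were seen. The members, the gene lists and the measures were chosen with earlier results of these data known, and no gene set or sample test was run.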

Additional observations from a re-analysis of the deposited data

How the results depend on the processing

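The 10 genes with a promoter peak, and their presence in both pools, stayed at 10 in the pseudoreplicated list, in each pool list alone, at a −log10 q of at least 5 and with windows of 500 and 2500 bp, and were 9 with the 5′ end of each gene alone. The median percentile of their signal within the list, 95.0, was 91.9 in the pool J list and 90.7 at a −log10 q of at least 5, where the list is shorter by construction. Their median width of 1708 bp was 2160.5 bp in the pool I list, and the count 2 kb or wider rose from 3 to 5 there. At a −log10 q of at least 5, body peaks numbered 10 instead of 24, outside peaks 75 instead of 126 and vesicular transporter genes with a promoter peak 3 instead of 5, since fewer peaks remain. In the pool J list alone, assembly and regulatory genes with a promoter peak numbered 13 instead of 14. The mTORC1 genes numbered 9 instead of 10 and the vesicular transporter genes 4 instead of 5. Over all coding genes 55.2% had one in that list. Genes with an E-box went from 3 to 5 with the window of 500 bp, which also covers the 3 genes missing from the promoter table. No paired analysis was possible because there is 1 group and no test. Each pool gives 1 list of unknown depth, so a difference between pools has no error.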
